A study of Mus musculus with 7 samples.

Results

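Cytosolic ribosomal protein genes were followed in isolated mouse islets, the small endocrine organs within the pancreas that hold its insulin and glucagon cells. The set was taken by symbol and held 21 of 14807 named genes: symbols that begin with Rpl or Rps and a digit, or with Rplp, without numbered pseudogenes and S6 kinases, each on a row of the array table annotated with 1 gene. Of the 21, 15 encode canonical proteins of the cytosolic ribosome, 9 of the large subunit and 6 of the small subunit. Another 5, Rpl3l, Rpl7l1, Rpl39l, Rps27l and Rps4l, are paralogues, and Rps19bp1 encodes a protein that binds Rps19 and is no ribosomal protein itself. The canonical ribosome was thus sampled in part. Of 79 canonical genes, 23 appeared only on rows shared with other genes, and 40 had no row under the symbols used here. Rpsa, which has its own row, is outside the symbol rule.

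RNA came from 4 control samples, numbered 1 to 4, and 3 samples, numbered 5 to 7, from mice with deletion of FoxO1, FoxO3 and FoxO4 in pancreatic beta cells. All were of the mixed background 129 x FVBn x C57BL/6, and controls were littermates, with cohorts matched for age and sex. No age is stated, nor whether a sample is 1 mouse or a pool, nor the promoter that drove the deletion, so p-values measure the spread between these samples, which may be technical. Values are log2 expression summarised per probe set by RMA, a method that corrects background and normalises arrays to each other. Differences are knockout minus control on that log2 scale.

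The ribosome translates mRNA in every cell. Its small subunit reads the message and its large subunit joins amino acids, and the protein products leave through a tunnel in the large subunit. Ribosomal protein mRNAs commonly begin with a pyrimidine tract, through which the insulin-responsive kinase complex mTORC1 controls their translation. Insulin signalling through Akt feeds into mTORC1 and also keeps FoxO transcription factors out of the nucleus. In beta cells the ribosome carries the load of insulin synthesis.

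Start-site sequences were read for 18 of the 21 genes from RefSeq (GRCm38.p6), in windows of 250 bases before and 50 bases from each annotated start. A pyrimidine run (C and T only) of at least 8 bases was sought from 30 bases before to 20 bases from a start, on the gene's strand. It occurred in 8 of 18 genes (44.4%), against 22.9% of all 27025 genes with a window. Both shares count a run wherever it lay in that stretch, at any of a gene's starts. The 18 genes had 25 windows and the 27025 genes had 32851, so the members had more windows per gene. The longest runs of Rpl31, Rpl4, Rps27l, Rpl39l and Rps24 ended before the annotated start of their window, and so lie outside the mRNA from that start. Rps27l and Rps24 have 2 annotated starts each, and whether their runs lie within mRNA from the other start was not examined. The longest runs of Rps18, Rpl35a and Rps9 crossed the start. The windows below show the genes with the largest difference (Rps27l) and the smallest spread (Rps9). Also shown are the other runs across the start (Rps18, Rpl35a), the longest run (Rpl4), and the 2 smallest p-values (Rpl7l1, Rpl23), which have no long run. Each window is 50 bases, with the longest pyrimidine run in capitals, and for genes with several starts the one with the longest run was taken.
Rps27l (chr9:66946056-66946105, plus strand): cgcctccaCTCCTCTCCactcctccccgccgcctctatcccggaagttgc
Rps9 (chr7:3704011-3704060, plus strand): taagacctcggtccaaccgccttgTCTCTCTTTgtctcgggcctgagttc
Rps18 (chr17:33955646-33955695, minus strand): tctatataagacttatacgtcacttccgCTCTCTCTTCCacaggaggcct
Rpl35a (chr16:33056452-33056501, plus strand): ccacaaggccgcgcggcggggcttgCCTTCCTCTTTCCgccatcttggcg
Rpl4 (chr9:64173357-64173406, plus strand): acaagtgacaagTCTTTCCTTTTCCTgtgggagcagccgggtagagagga
Rpl7l1 (chr17:46782637-46782686, minus strand): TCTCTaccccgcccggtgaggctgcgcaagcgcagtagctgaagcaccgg
Rpl23 (chr11:97782420-97782469, minus strand): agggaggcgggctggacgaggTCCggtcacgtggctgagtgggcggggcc

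Short motifs were then searched on both strands of the whole windows, and a gene was counted if any of its windows matched. Shares of all genes here are of the 27025 genes with a window. The forkhead-type letters GTAAACA occurred, read on either strand, in 0 of the 18 genes and in 4.05% of all genes. That says only that these letters are not in these windows. CCGGAAG, the core of ETS factor sites, occurred in 5 of 18 genes (27.8%) and in 9.93% of all genes. AAGATGGC, a YY1-type sequence, occurred in 3 of 18 (16.7%) against 3.19% of all genes, and the letters CTTTCC, which can lie inside a pyrimidine run, in 12 of 18 (66.7%) against 29.3%. A YY1-type and an ETS-type match can share bases, and a match is a description of sequence, not of binding.

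Samples were not equally alike. Controls 3 and 4 lay apart from the other 5 samples on the first principal component, at 43.2 and 30.3 against -29.0 to -3.40, and their upper quartiles over all rows were 8.63 and 8.81 against 8.88 to 8.95. Results are therefore also given without them. Islet identity was clear, with Ins2 at 12.79 to 13.22, Gcg at 13.53 to 13.64 and Sst at 13.55 to 13.72. The deleted genes Foxo1, Foxo3 and Foxo4 differed by -0.26, -0.16 and -0.47, with limma adjusted p of 0.490, 0.486 and 0.362.

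The comparison asks how the genes of the ribosome are expressed when beta cells lack FoxO factors. No cytosolic ribosomal protein gene passed the test for a difference. Of the 21, 0 passed limma's test at an adjusted p under 0.05, where 0.00675% of all genes did (1 gene). At an unadjusted p under 0.05, 0 were higher and 0 were lower, against 11.6% and 2.14% of all genes. Knockout and control values overlapped for all 21 genes, whereas 8.99% of all genes were higher and 1.94% lower in knockout islets without overlap. The smallest adjusted p was 0.368, for Rpl7l1. Differences were positive for 18 of 21 genes, against 68.4% of all genes, and their median was 0.18 against 0.08 over all genes. Without controls 3 and 4 the count was again 18 of 21, against 58.5% of all genes, with a median of 0.13 against 0.03, and 17 of the 21 kept their sign. Over the 15 canonical genes alone, 12 were positive with a median of 0.10, or 12 and 0.14 without controls 3 and 4. After quantile normalisation 14 of 21 were positive, against 60.8% of all genes.

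**Figure D1:**
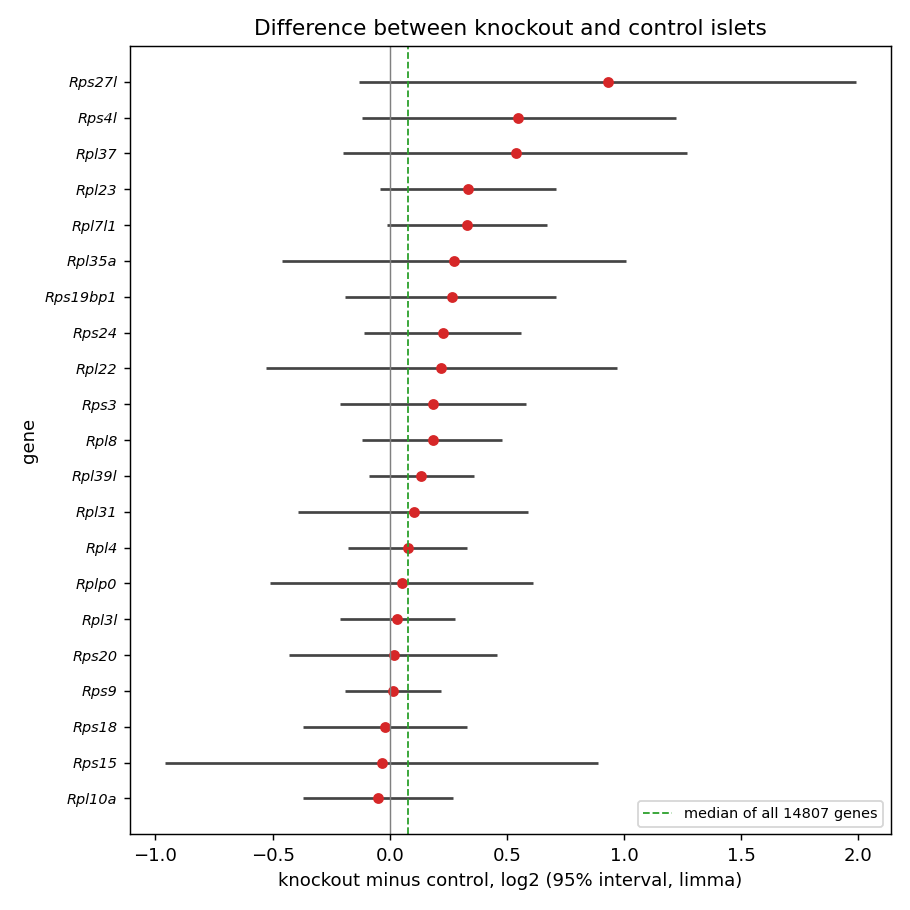
Difference between knockout and control islets for each of the 21 genes (x axis, log2; points, estimate; bars, 95% interval from limma) with the median of all 14807 genes as a dashed line. Every interval includes 0, the estimates run from -0.05 for Rpl10a to 0.93 for Rps27l, and the intervals differ widely in width.

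The intervals show how large a change in these values the samples leave possible. For 10 of the 21 genes the 95% interval lay within a 1.5-fold change in either direction, and for the other 11 it did not. The 10 include Rpl4, Rpl3l and Rpl39l. Their values were near the bottom of the scale, so their narrow intervals may not bound a change in mRNA. The spread within groups had a median SD of 0.26 over the set against 0.18 over all genes, and ran from 0.07 for Rps9 to 0.76 for Rps27l.

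Large-subunit genes included steadier and more variable genes, though the extremes of spread in the set, Rps9 and Rps27l, were not among them. Rpl23 encodes a protein at the interface of the subunits that can also bind the p53 regulator Mdm2. It was at 7.85, 7.36, 7.95 and 7.82 in controls 1 to 4 and at 8.30, 7.91 and 8.02 in knockouts 5 to 7. Knockout 6 lay just below control 3, and control 2 was the lowest sample. Control samples averaged 7.74 ± 0.26 (SD, n = 4) and knockout samples 8.08 ± 0.20 (SD, n = 3). They differed by 0.34 (SE 0.16, limma, adjusted p = 0.382). When controls 3 and 4 were left out it was 0.48 (SE 0.18, adjusted p = 0.951).

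Rpl37, a zinc-finger protein of the large subunit, was at 5.50, 5.06, 4.76 and 4.69 in controls and at 5.56, 4.85 and 6.22 in knockout samples. Its highest value came from knockout 7, while knockout 6 lay among the controls. The difference was 0.54 (SE 0.32, adjusted p = 0.451 in limma), and it was 0.20 without knockout 7 and 0.26 without controls 3 and 4. Rpl35a, mutated in a form of Diamond-Blackfan anaemia in humans, was at 6.80, 6.76, 6.70 and 6.42 in controls and at 7.67, 7.05 and 6.10 in knockout samples. Here the knockout group spanned the control group on both sides. Its difference of 0.27 (SE 0.32, limma adjusted p = 0.735) was -0.09 without knockout 5 and 0.69 without knockout 7.

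Rpl8, a protein close to the peptidyl transferase centre, was at 10.44, 10.18, 10.07 and 10.38 in controls and at 10.66, 10.34 and 10.36 in knockout samples. Its difference was 0.18 (SE 0.13, limma adjusted p = 0.534), with a 95% interval of -0.12 to 0.48, and quantile normalisation brought it to -0.002. Only knockout 5 exceeded all controls. Rpl10a, part of the stalk over which spent tRNA leaves, was the large-subunit gene with a negative difference, -0.05 (SE 0.14). Its knockout values were 8.53, 8.79 and 8.72, against a control range of 8.53 to 8.95, with control 1 the highest sample and knockout 5 the lowest. Without controls 3 and 4, which were at 8.55 and 8.53, the difference was -0.24 (SE 0.12, limma adjusted p = 0.951).

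Rplp0 forms the base of the stalk that recruits translation factors and is often used as a reference gene in PCR. Its values were 6.76, 5.88, 5.91 and 6.38 in controls and 6.59, 5.94 and 6.32 in knockout samples. Both groups covered nearly the same range, and the difference was 0.05 (SE 0.24), with a 95% interval of -0.51 to 0.61. Rpl4, which lines the exit tunnel, ran from 3.48 to 3.81 in controls and from 3.63 to 3.87 in knockout samples. Rpl31, a protein near the tunnel exit, ran from 5.02 to 5.81 in controls and from 5.26 to 5.90 in knockout samples. Rpl22 was at 6.81 in control 3, the lowest of its 7 values, and at 7.88 to 8.28 in the other controls, against 7.62 to 8.16 in knockout samples. These 3 differences were 0.08, 0.10 and 0.22, and without controls 3 and 4 they were -0.01, 0.26 and 0.03.

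Small-subunit genes had a median difference of 0.02 over 6 members, against 0.18 over the 9 large-subunit members. The medians were 0.13 and 0.14 without controls 3 and 4, with 6 of 6 and 6 of 9 positive, so that this gap was nearly gone. The difference between these medians was not tested. Rps9, which sits near the decoding region, gave the tightest values of the set, at 10.33, 10.21, 10.35 and 10.31 in controls and 10.33, 10.23 and 10.38 in knockout samples. The groups coincided, with a difference of 0.02 (SE 0.09), a 95% interval of -0.19 to 0.22 and a limma adjusted p of 0.956. On the quantile scale it was -0.17 (SE 0.13, adjusted p = 0.593).

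Rps3, a protein at the mRNA entry channel that also acts in DNA repair, was at 10.76, 10.67, 10.56 and 10.93 in controls and at 11.25, 10.95 and 10.54 in knockout samples. Knockouts 5 and 6 were the highest samples and knockout 7 the lowest. The difference was 0.19 (SE 0.17, limma adjusted p = 0.649), and it was 0.37 without knockout 7 and 0.02 without knockout 5. Rps20, a protein of the small subunit's head, also had its highest value in knockout 5 and its lowest in knockout 7, at 10.92, 10.50 and 10.01 in knockouts 5 to 7, around controls of 10.39 to 10.56. Its mean difference was 0.02 (SE 0.19).

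Rps24, another Diamond-Blackfan gene in humans, was at 6.40, 5.93, 6.52 and 6.37 in controls and at 6.60, 6.47 and 6.52 in knockout samples. Control 2 alone lay well below the rest. The difference was 0.23 (SE 0.15, limma adjusted p = 0.488), and 0.10 without control 2. Rps15 and Rps18, both in the head of the small subunit, differed by -0.03 (SE 0.40) and -0.02 (SE 0.15). Rps15 varied widely within both groups, from 5.31 to 6.42 in controls and from 5.17 to 6.84 in knockout samples, and its difference was -0.43 without knockout 6 and 0.40 without knockout 7.

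The 5 paralogues and Rps19bp1 all had positive differences, with a median of 0.30, and 0.11 without controls 3 and 4. Rps27l, a paralogue of Rps27 that p53 can induce, gave the largest difference of the 21. It was at 10.73, 10.13, 8.74 and 9.92 in controls and at 11.39, 10.90 and 10.14 in knockout samples. Control 3 was the lowest by more than 1 log2 unit, control 1 exceeded knockout 7, and knockouts 5 and 6 were the highest samples. The means were 10.81 ± 0.63 (SD, n = 3) and 9.88 ± 0.83 (SD, n = 4), a difference of 0.93 (SE 0.46), or 1.91-fold, with a limma adjusted p of 0.384. Without controls 3 and 4 it was 0.38 (SE 0.35), and with single samples left out it ran from 0.55 without control 3 to 1.27 without knockout 7.

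Rpl7l1, a paralogue of Rpl7, was at 8.61, 8.64, 8.21 and 8.25 in controls and at 8.92, 8.78 and 8.58 in knockout samples. Knockouts 5 and 6 were above every control, and knockout 7 fell between the control pairs. The difference was 0.33 (SE 0.15, limma adjusted p = 0.368), and 0.13 (SE 0.13) without controls 3 and 4. Rps4l, named as a paralogue of the S4 genes, was at 8.81, 8.56, 7.86 and 7.65 in controls and at 9.00, 8.85 and 8.45 in knockout samples. Its difference of 0.55 (SE 0.29, limma adjusted p = 0.406) was 0.08 (SE 0.18) without controls 3 and 4. Rps19bp1, whose product also activates the deacetylase Sirt1, differed by 0.26 (SE 0.20) with and by 0.01 (SE 0.16) without those samples.

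Rpl3l, a paralogue used in striated muscle, and Rpl39l, one used in male germ cells, had low values in all samples, at 4.11 to 4.40 and 3.42 to 3.74. They differed by 0.03 (SE 0.11) and 0.13 (SE 0.10). RMA does not say whether a probe set was detected, so even an unexpressed gene has a value. Canonical members also lay low on this scale, among them Rpl4 at a mean of 3.70, Rpl37 at 5.23, Rpl31 at 5.50 and Rps18 at 5.78, against a median of 7.61 over all genes. In all, 10 of the 21 were at or below that median. Values of different probe sets carry different probe affinities and do not order the abundance of these mRNAs. RefSeq lists numbered pseudogenes for 11 members, with 24 for Rpl31 and 6 each for Rpl35a and Rps18, and 3 members also appeared on rows shared with other genes, so probes for these genes may be shared with near-identical copies.

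**Figure D2:**
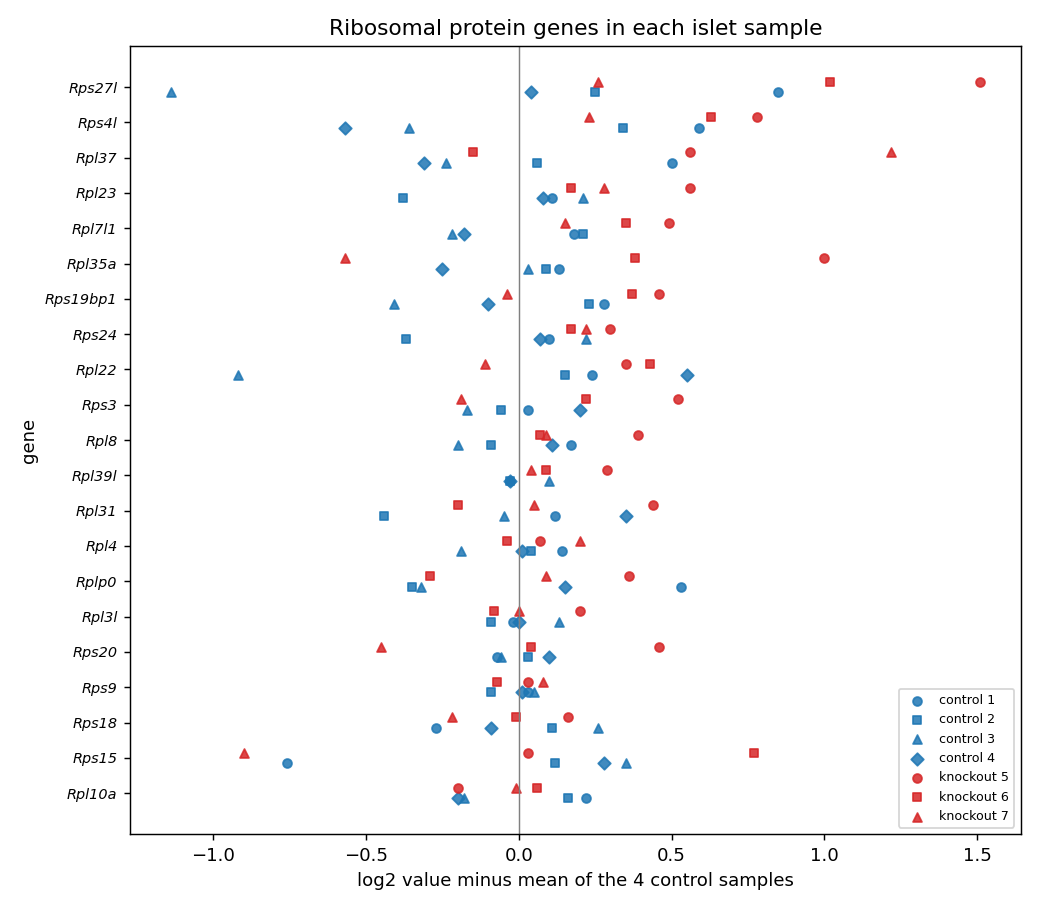
Value of each gene in each of the 7 samples as the log2 value minus the mean of the 4 controls (x axis; blue, controls 1 to 4; red, knockouts 5 to 7). Red and blue points overlap in every line, knockout 5 is often at the right edge, and the lowest Rps27l value, in control 3, lies far to the left.

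Single samples carried much of what difference there was. Knockout 5 was the highest sample for 13 of the 21 genes, against 26.8% of all genes. Control 3, the lowest sample for 37.1% of all genes, was the lowest for 6 of the 21. Control 2 was also the lowest for 6 of the 21, against 7.2% of all genes. Without knockout 5 the median of the set fell to 0.06, against 0.07 over all genes, and 14 of 21 differences were positive. With other single samples left out it ran from 0.12 without control 3 to 0.23 without knockout 7. The 0 genes at an unadjusted p under 0.05 became 4 higher without knockout 7 (Rpl35a, Rpl7l1, Rps27l and Rps3), where 13.4% of all genes were higher. Without control 1 they became 3 (Rpl7l1, Rps27l and Rps4l), where 18.5% of all genes were, and 0 were lower in each. Leaving out controls 3 and 4 made 1 gene higher (Rpl23) and 0 lower, where 3.51% and 1.22% of all genes were.

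Genes at different levels on the scale were also compared with other genes of like level. The 11 members above the median level had a median difference of 0.22, with 10 positive, where all genes above that level had a median of 0.16 and 71.8% positive. For the 10 members at or below it the median was 0.09, with 8 positive, against 0.04 and 65.0%. Leaving out controls 3 and 4 turned the order of the members, to 0.08 above and 0.16 at or below the median level, against 0.04 and 0.03 for all genes. Above the upper quartile of level the 5 members, Rps27l, Rpl8, Rps9, Rps20 and Rps3, had a median of 0.18, against 0.19 for all 3702 genes there. Controls 3 and 4 averaged below controls 1 and 2 for 11 of the 21 genes (52.4%) and for 68.0% of all genes. Whether the lower upper quartiles of those arrays contributed to the differences was not tested.

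Mitochondrial ribosomal protein genes, which encode the separate ribosome inside mitochondria, gave other counts. Of 68 measured, 62 had positive differences with a median of 0.37, 24 of them higher and 0 lower before adjustment (p under 0.05), against 11.6% and 2.14% of all genes. The groups did not overlap for 14, all higher, against 8.99% of all genes. None passed at an adjusted p under 0.05 in limma. With controls 3 and 4 left out their median was 0.14, beside 0.13 for the cytosolic set, and 5 were higher at that threshold, against 3.51% of all genes. The difference between the 2 families was not tested.

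**Figure D3:**
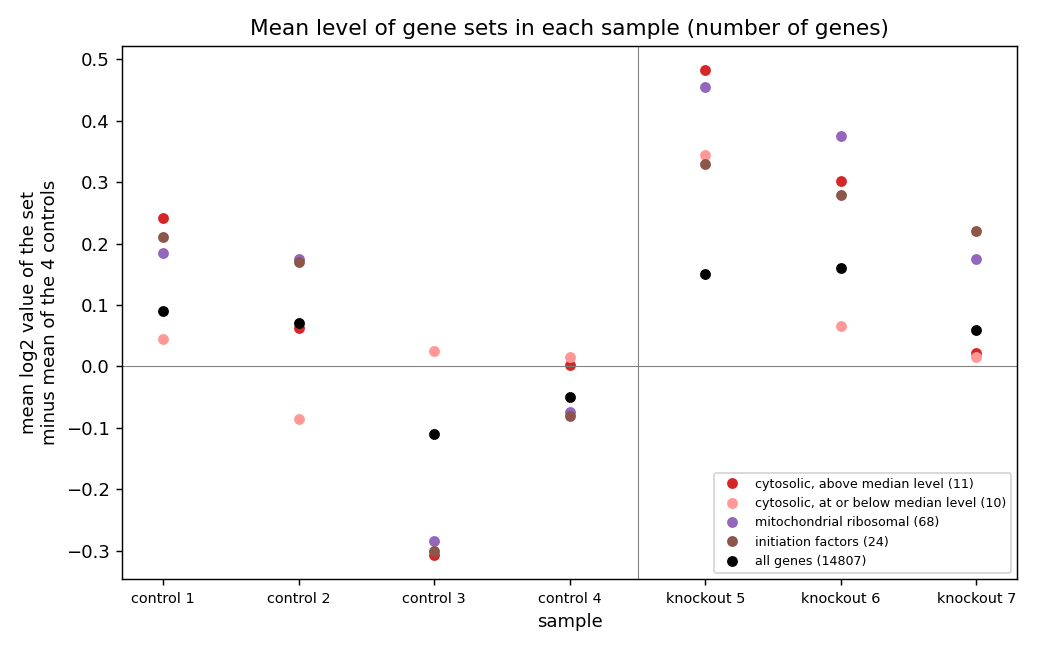
Mean log2 value of each gene set in each sample minus the mean of the 4 controls, for cytosolic ribosomal protein genes above and at or below the median level, mitochondrial ribosomal protein genes, initiation factors and all genes. Control 3 is low for every set but the dim cytosolic genes, and knockout 5 is the highest sample for each set but all genes, where knockout 6 is.

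The rest of the translation machinery was described from lists of known genes, whose counts read against 68.4% of all genes with a positive difference and, at p under 0.05 before adjustment, 11.6% higher and 2.14% lower. With controls 3 and 4 left out these shares were 58.5%, 3.51% and 1.22%. Of 24 initiation factors, 21 had positive differences with a median of 0.29, with 5 members higher (11.6% of all genes) and 1 lower (2.14%) before adjustment. Eif3e, a subunit of the eIF3 complex, was at 9.27, 8.95, 8.07 and 9.01 in controls and at 10.21, 9.56 and 9.61 in knockout samples. All knockout values exceeded all controls, with a difference of 0.97 (SE 0.29, limma adjusted p = 0.362) that was 0.69 without controls 3 and 4. Eif3f, of the same complex, differed by 0.51 (SE 0.18) and Eif2b2, of the factor that recharges eIF2, by 0.36 (SE 0.12), or by 0.27 and 0.20 without controls 3 and 4. Leaving out controls 3 and 4 left 17 positive differences, a median of 0.05, and 1 higher and 0 lower genes at that threshold (3.51% and 1.22% of all genes).

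Among 8 elongation genes, 3 were higher and 0 lower by that measure, against 11.6% and 2.14% of all genes. These were Eef1e1, an auxiliary protein of the tRNA synthetase complex (0.70, SE 0.22), Eif5a2 (0.58, SE 0.18) and Eef1akmt1, which methylates elongation factor 1A (0.62, SE 0.22). The list's median was 0.02. For 14 genes other than ribosomal proteins whose mRNAs start with a pyrimidine tract, 9 differences were positive, the median was 0.03, and 3 were higher and 0 lower at that threshold (11.6% and 2.14% of all genes), Eif3e, Eif3f and the histone chaperone gene Nap1l1 (0.28, SE 0.09). These medians were -0.03 and -0.05 without controls 3 and 4, with 1 gene of each list higher, against 3.51% of all genes. The 3 elongation genes named then differed by 0.43, 0.41 and 0.45.

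Of 47 genes that process and assemble ribosomal subunits, 38 had positive differences with a median of 0.17, and 11 were higher and 0 lower before adjustment (p under 0.05), against 11.6% and 2.14% of all genes. Pno1, an assembly factor of the small subunit, was at 8.68, 8.65, 7.70 and 8.03 in controls and at 9.45, 9.31 and 8.78 in knockout samples. The groups did not overlap, and the difference was 0.92 (SE 0.27, limma adjusted p = 0.362), or 0.52 without controls 3 and 4. Imp3 and Nip7, which act in ribosomal RNA processing, differed by 0.87 (SE 0.31) and 0.55 (SE 0.21), and by 0.39 each without controls 3 and 4. Of 10 genes of RNA polymerase I, which transcribes ribosomal RNA, 3 were higher and 0 lower, against the same 11.6% and 2.14%. Taf1d, of its promoter selectivity factor, differed by 0.50 (SE 0.12, limma adjusted p = 0.362) and by 0.45 without controls 3 and 4. Without those controls 1 gene of the assembly list and 1 of the polymerase list were higher at that threshold, against 3.51% of all genes.

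Of 18 mTORC1 and S6 kinase genes, 9 had positive and 9 negative differences, 2 in each direction having p under 0.05 before adjustment, against 11.6% of all genes higher and 2.14% lower. Rheb, the activator of mTORC1, differed by 0.46 (SE 0.17), and Rps6kb2, a kinase of ribosomal protein S6, by -0.39 (SE 0.16), or by 0.28 and -0.18 without controls 3 and 4. Of 11 genes at the exit tunnel or in ribosome quality control 1 was higher, Srp9 of the signal recognition particle (0.63, SE 0.22, and 0.37 without controls 3 and 4). Of 12 p53 pathway genes, which include Rps27l, 3 were higher, against 11.6% of all genes, Ccng1 (0.79), Gadd45a (0.47) and Trp53inp1 (0.33). These values were 0.22, 0.25 and 0.36 without controls 3 and 4. None of these lists held a gene past the adjusted threshold in limma, and without controls 3 and 4 none of the 3 had a gene with p under 0.05 before adjustment.

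Markers of other cells were compared in the same way, and none passed at an adjusted p under 0.05 in limma. The differences of all 6 endothelial markers were negative (median -0.25), and 2 of them, Flt1 and Kdr, were lower before adjustment (p under 0.05, 2.14% of all genes). With controls 3 and 4 left out the median was -0.39 and 4 of the 6 were lower, against 1.22% of all genes. Their mean level was 8.67 to 9.11 in controls and 8.52 to 8.77 in knockout samples, so the groups overlapped, as they did for each of the 6. Acinar markers, at 8.22 to 9.44 in controls and 8.75 to 9.42 in knockout samples, and markers of macrophages, ducts and mesenchyme also overlapped between groups. Of 5 macrophage markers, 4 had negative differences (median -0.19), with 0 lower before adjustment (p under 0.05, 2.14% of all genes). With controls 3 and 4 left out, 0 of the 5 were positive (median -0.26) and 1 was lower, against 1.22% of all genes. Immediate early genes were at 10.66 and 10.68 in controls 3 and 4, against 9.51 to 10.40 in the other 5 samples, and 17 of 18 had negative differences, with a median of -0.38, or -0.001 without controls 3 and 4. In whole islets, fewer cells of a type and less RNA per cell cannot be told apart, and the part of these markers in the ribosomal protein values was not tested.

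**Figure D4:**
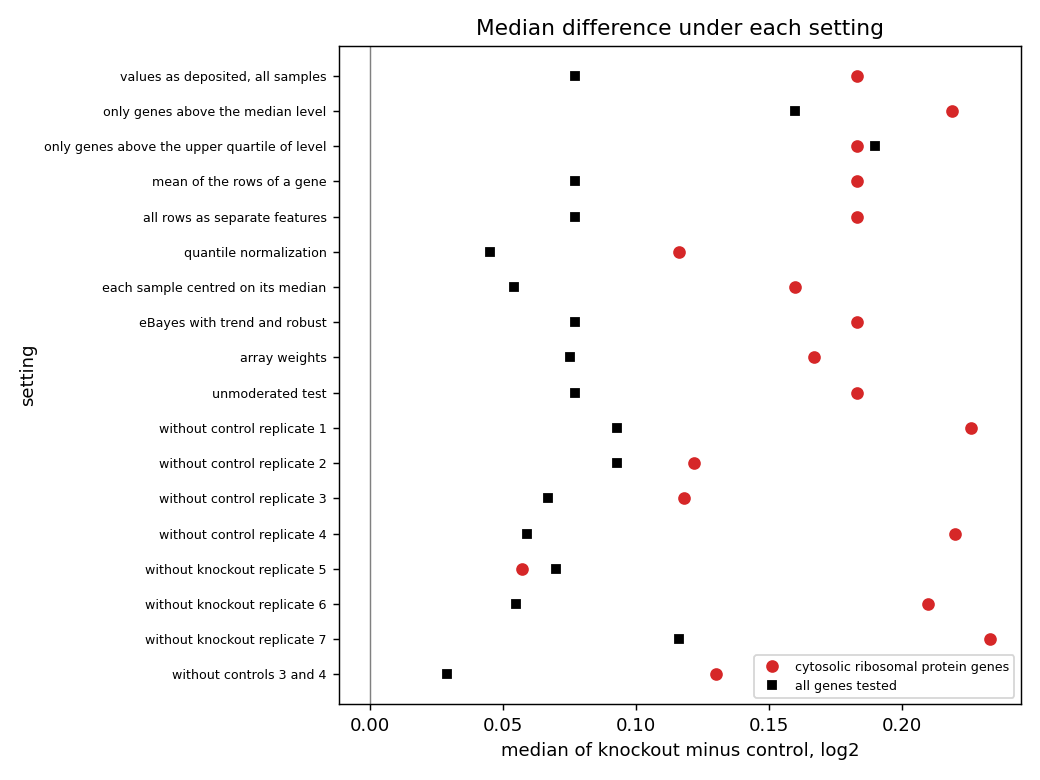
Median of knockout minus control over the cytosolic ribosomal protein genes tested (circles) and over all genes tested (squares) under each processing setting or left-out sample (y axis). The circles run from 0.06 without knockout 5 to 0.23 without knockout 7 and lie right of the squares except without knockout 5 and among genes above the upper quartile of level.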

How the data were processed

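The authors deposited 1 table of log2 values, per the labels made with RMA in Affymetrix Expression Console (no version or genome build is given in the sources used here). The scale was read from the values, 2.50 to 14.28. Precision is limited by the number of arrays. Of 23238 rows, 14939 had 1 gene symbol, 989 several and 7310 none. The brightest row was kept per gene, which gave 14807 genes, and each member had 1 row. Groups came from the sample titles. limma 3.58.1 in R 4.3.3 compared all 7 samples with no covariate, two-sided, with Benjamini-Hochberg adjustment over all genes. The method was tested on simulated data. The members and gene lists were chosen with earlier results of these data known. Named genes were the members, by their roles and smallest p-values, and up to 3 genes with the smallest p from each other list. A planned comparison of paralogues with their counterparts was not run, since 0 of 8 pairs had both genes measured. The alternatives were 16 planned settings and a fit without controls 3 and 4, chosen after seeing the data.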

Additional observations from a re-analysis of the deposited data

Results flagged for a closer look

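In control 3, Rpl39l was at 3.55, while the other 3 controls were at 3.42, so that this sample stood apart from a group of very close values. By the test for outlying samples used, chance alone marks about 1 group in 20, and the 21 genes gave this 1 case. The value was near the bottom of the scale.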

How the results depend on the processing

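No paired analysis was possible because the labels name no pairing of samples. Comparisons of paralogue pairs were not run because no pair had both genes measured. The count of 0 members at an adjusted p under 0.05 held in all 17 alternatives. The count at an unadjusted p under 0.05 that were higher was 3 with array weights (Rpl23, Rps24 and Rps27l; 13.4% of all genes), 1 without controls 3 and 4 (3.51%), and 0 to 4 with single samples left out (3.23% to 18.5%), and 0 were lower in any. The median of the set kept its sign throughout, at 0.06 to 0.23 with single samples left out. Of 331 values of members under alternatives, 37 had the other sign, in 13 members, none of them past the threshold, and the cause was not tested. With quantile normalisation Rpl8 was at -0.002, Rps20 at -0.19, Rps3 at -0.011 and Rps9 at -0.17, and centring gave -0.005 for Rps20 and -0.007 for Rps9. Array weights gave -0.023 for Rpl4, -0.036 for Rplp0, 0.44 for Rps15 and 0.056 for Rps18. Without controls 3 and 4 Rpl4 was at -0.013, Rplp0 at -0.034, Rps15 at 0.28 and Rps18 at 0.059. With single samples left out, values that changed sign ran from -0.12 to 0.024 for Rpl10a, -0.09 to 0.40 for Rpl22, -0.07 to 0.25 for Rpl31, -0.09 to 0.69 for Rpl35a, -0.047 to 0.093 for Rpl3l, -0.10 to 0.23 for Rplp0, -0.43 to 0.40 for Rps15, -0.11 to 0.075 for Rps18, -0.20 to 0.25 for Rps20 and -0.016 to 0.058 for Rps9. Signal near the bottom of the scale limits what Rpl4, Rpl3l and Rpl39l can show.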
